A study of Mus musculus with 36 samples.

Results

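The insulin-like growth factor (IGF) axis of mouse myoblasts was described from 10 of the 49315 genes in the count tables: 2 ligands (Igf1, Igf2), 2 receptors (Igf1r, Igf2r) and 6 binding proteins (Igfbp2 to Igfbp7). The genes were taken by name from the IGF family, and all 10 passed the filter on low counts. The family was chosen by its known genes but with earlier results of these data in view, namely the low Igf1 log2 fold changes of both space regimes against land. The Igf1 values of those 2 comparisons are therefore given as a description with no test.

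IGF ligands are secreted growth factors. The type 1 receptor is a tyrosine kinase that signals through PI3K, AKT and mTOR and through RAS and MAPK, while the type 2 receptor carries ligand to the lysosome and also sorts lysosomal enzymes. Binding proteins hold the ligands in the medium and matrix and can limit or prolong their action. In muscle, IGF signalling is known for driving myoblast growth and differentiation, and cultured myoblasts make their own ligand.

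The cells were C2C12, an established line of mouse myoblasts, kept in proliferating culture in closed flight hardware. Without or with nanoceria (cerium oxide nanoparticles, serum-coated, at 100 µg/ml in the medium reservoir), they were cultured in 3 regimes: in space without gravity, in space but with gravity, and on land. Cells without nanoceria are called untreated below and those with it treated. Every one of the 6 groups had 3 polyadenylated RNA libraries, 1 per experiment unit. Replicate numbers were given here in sample order, so the same number in different groups does not link their libraries. All cells came from the same line and were fixed in RNAlater in their units, and the land units were run later in the same type of hardware once the flight profile was known. Spaceflight and experiment run therefore cannot be told apart in a comparison with land.

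Counts per library ran from 2986628 to 11378178 in 17 libraries. The library of space with gravity, with nanoceria, replicate 3 held 23858 counts, in which 1 count equals 11.9 CPM (the read count scaled to library size). That library had counts for 3 of the 10 genes, 5 counts in all, and results that rest on it are given without it too. A set of 6 genes led by Lars2 and Gm23935 took 23.8% to 54.4% of counts in space with gravity, 40.7% to 70.3% in space without gravity and 49.6% to 76.3% on land. Proliferating myoblast markers summed to between 76.3 and 547 CPM in the 17 larger libraries. The most abundant of these were Des, the muscle intermediate filament protein, and Myf5, a myogenic transcription factor, both with counts in all 18 libraries. Myod1, the defining myogenic factor of myoblasts, had 99 counts in all and 0 in 8 libraries. Pax7 (52 counts) was at 0 in 4 libraries and Cdh15 (122 counts) in 3, and Vgll2 and Mymx each had counts in 1 library. Levels below are CPM scaled by TMM (trimmed mean of M-values) library factors. In the 17 larger libraries 3 counts, the limit that a count of 0 allows, equal 0.193 to 1.11 CPM, and these limits cover counting error only.

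The promoters of 3 of the genes that came out lower in space with gravity than on land, of Igf1, and of Igfbp4, which varied least, are shown for comparison of their sequence. Each is 300 bases long, from 250 before to 50 after the RefSeq start site (GRCm38.p6), and all 10 genes had an entry. Capitals mark matches on either strand to 4 motifs: the TATA box spelled TATAAA, the GC box spelled GGGCGG, the CCAAT box by its own letters, and the E-box of myogenic factors spelled CAGCTG. Igf1 lies at chr10:87860861-87861160 (plus strand), Igf2r at chr17:12769657-12769956 (minus strand), Igfbp2 at chr1:72824230-72824529 (plus strand), Igfbp3 at chr11:7213874-7214173 (minus strand) and Igfbp4 at chr11:99040994-99041293 (plus strand).
Igf1: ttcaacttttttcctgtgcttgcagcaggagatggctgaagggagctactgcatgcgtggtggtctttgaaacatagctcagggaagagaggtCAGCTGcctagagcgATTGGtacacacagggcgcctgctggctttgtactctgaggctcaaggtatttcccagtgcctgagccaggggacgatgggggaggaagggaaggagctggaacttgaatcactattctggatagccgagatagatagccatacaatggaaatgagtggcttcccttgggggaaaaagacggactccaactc
Igf2r: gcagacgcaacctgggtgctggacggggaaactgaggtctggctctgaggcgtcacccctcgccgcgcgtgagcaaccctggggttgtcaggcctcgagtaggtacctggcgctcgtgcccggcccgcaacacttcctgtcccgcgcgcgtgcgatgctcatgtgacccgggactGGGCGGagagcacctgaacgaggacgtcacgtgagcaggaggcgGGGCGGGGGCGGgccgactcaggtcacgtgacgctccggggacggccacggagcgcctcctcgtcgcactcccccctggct
Igfbp2: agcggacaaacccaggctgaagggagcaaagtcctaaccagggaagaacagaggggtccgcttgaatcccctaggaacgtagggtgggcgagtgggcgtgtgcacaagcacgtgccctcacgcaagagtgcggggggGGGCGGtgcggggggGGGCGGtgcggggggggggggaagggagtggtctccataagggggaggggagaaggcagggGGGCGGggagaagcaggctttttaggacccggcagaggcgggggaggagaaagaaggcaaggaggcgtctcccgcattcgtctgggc
Igfbp3: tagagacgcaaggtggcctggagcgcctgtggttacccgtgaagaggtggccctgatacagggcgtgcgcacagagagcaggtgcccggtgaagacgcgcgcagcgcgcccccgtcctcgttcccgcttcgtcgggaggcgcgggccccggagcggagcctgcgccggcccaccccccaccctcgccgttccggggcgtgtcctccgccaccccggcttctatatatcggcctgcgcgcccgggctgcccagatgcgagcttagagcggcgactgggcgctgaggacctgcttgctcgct
Igfbp4: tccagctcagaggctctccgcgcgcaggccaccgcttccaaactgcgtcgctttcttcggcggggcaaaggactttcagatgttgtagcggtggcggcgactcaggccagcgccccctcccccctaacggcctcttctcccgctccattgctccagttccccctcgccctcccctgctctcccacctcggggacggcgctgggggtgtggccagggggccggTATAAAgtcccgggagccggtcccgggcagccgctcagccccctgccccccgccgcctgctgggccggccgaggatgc

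Among these, Igf1 had 1 CAGCTG beginning 157 bases before the start site and 1 CCAAT box on the opposite strand, 142 bases before it. Igf2r and Igfbp2 had 3 GC boxes each, Igfbp4 had a TATAAA 28 bases before its start site, and Igfbp3 had none of the 4 motifs. Of the promoters not printed, that of Igfbp7 had 4 GC boxes and that of Igf1r had 2, and the Igfbp6 promoter had 1 TATAAA on the opposite strand and 2 CCAAT boxes. The Igfbp5 promoter had none, and neither did the Igf2 promoter nearest the 5′ end of the deposited gene. Other listed promoters of Igf2 and Igfbp2 were not searched. No matches overlapped in Igf2r, where the GC boxes at 31 and 25 bases before the start site abut. Of all 32851 RefSeq mouse promoters of this length, 13.6% hold TATAAA, 35.7% GGGCGG, 37.4% CCAAT and 16.3% CAGCTG, so each motif is common, and a match is a description of the letters only. The Igf1 start site lies 2846 bases inside the 5′ end of the deposited gene, and Igf2 has 4 listed promoters, so the counts do not say which start site was used.

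Per kilobase of exon, Igfbp7 (chromosome 5, 77349240 to 77408041) had the highest median by far, 82.4 CPM per kb over the 17 larger libraries. Its lowest library (24.7) was above the highest of the next gene in order, Igfbp6 (15.6). The highest libraries of Igf1 (85.4), Igfbp5 (69.0) and Igf2r (43.8) were above that lowest value. In treated land replicate 1, Igf2r (43.8) was above Igfbp7 (24.8). Igfbp7 encodes a secreted matrix-associated protein that binds IGFs weakly. Medians then fell through Igfbp6 (10.1 CPM per kb), Igfbp4 (3.85), Igf2r (3.28), Igfbp3 (1.84), Igf1r (1.56), Igfbp5 (1.26), Igfbp2 (0.988), Igf2 (0.259) and Igf1 (0.0320). Below Igfbp7, the ranges of every pair of neighbours in this order overlapped. Igfbp4 was the steadiest gene in TMM-scaled levels, with a 2.47-fold range across the larger libraries, followed by Igfbp6 with 3.29-fold. On counts outside the 6 abundant genes the ranges were wider, from 20.6 to 91.9 CPM for Igfbp4 and from 9.56 to 54.6 for Igfbp6. That scaling moved 41 of the 60 group means of the members by at least their SD. Each of the 10 genes had its highest CPM in a land library, and 4 of them (Igf1, Igfbp2, Igfbp5 and Igfbp7) had it in treated land replicate 3. The share of all genes with their highest CPM on land was not counted, so this is not a trait shown to be particular to these genes. For Igf2, Igfbp2, Igfbp4 and Igfbp6 the 0 of the smallest library allows up to 35.7 CPM, more than their highest value.

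**Figure D1:**
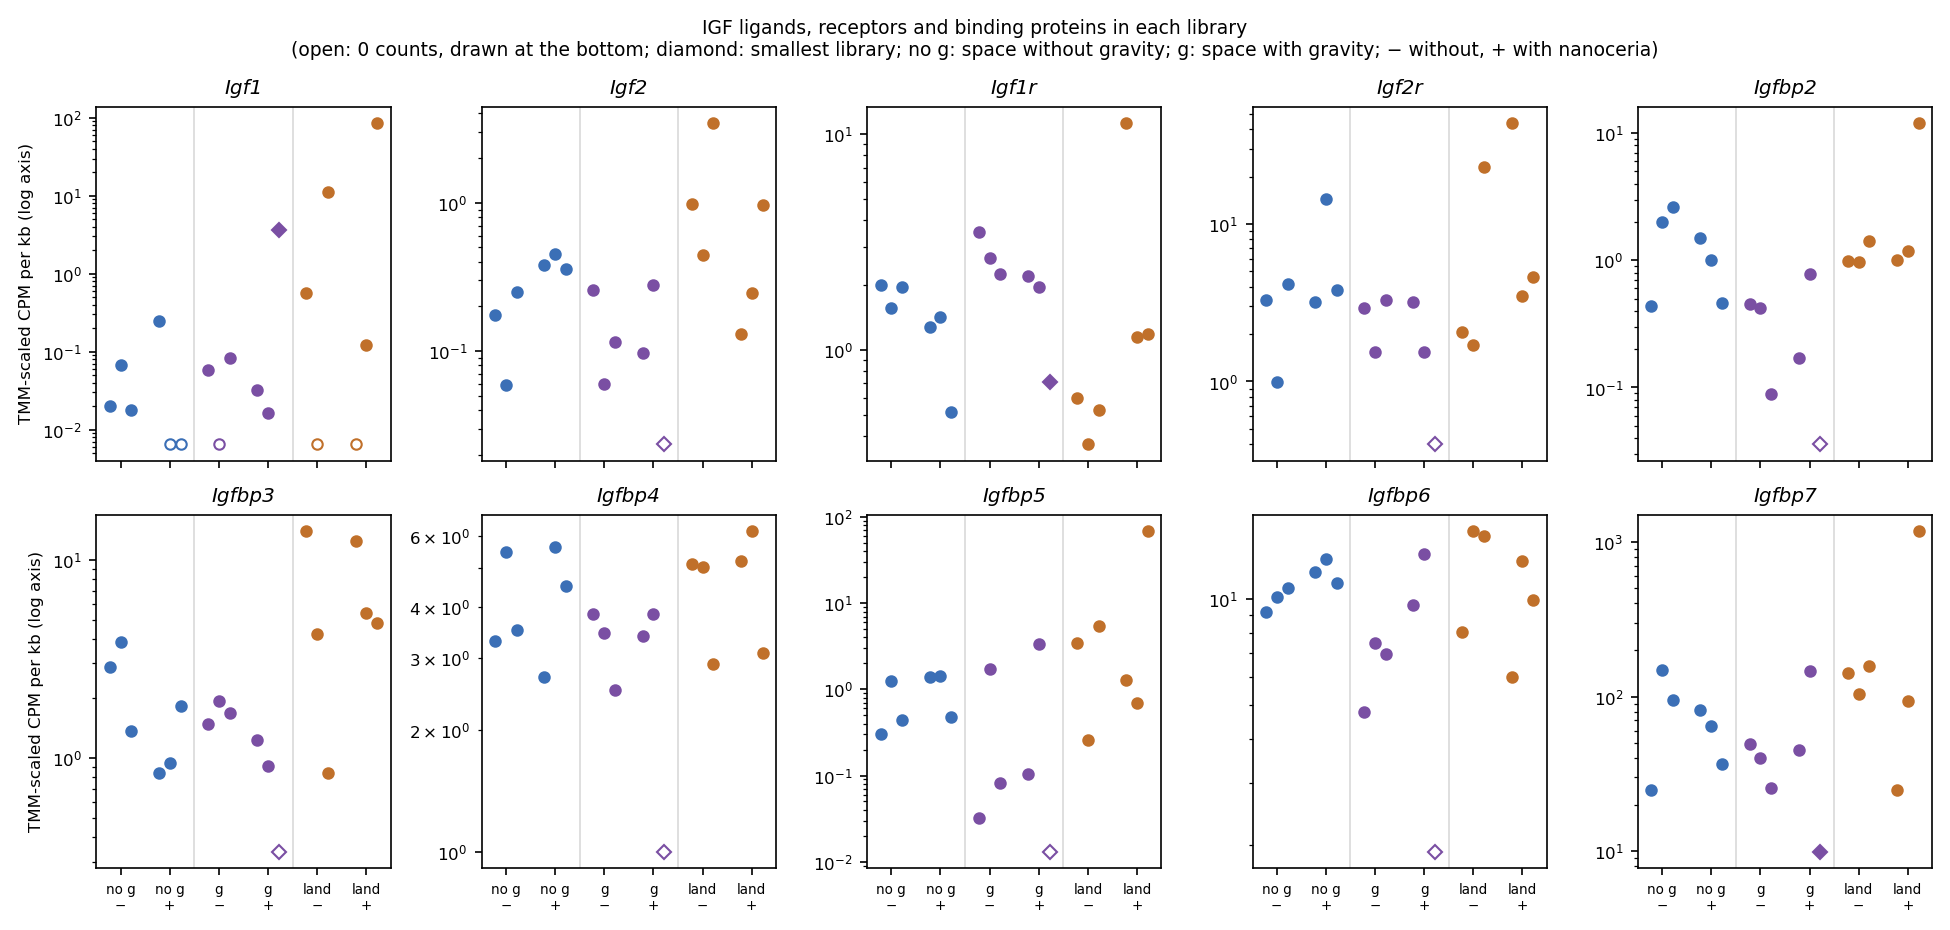
TMM-scaled CPM per kb of exon on a log axis for each gene in each of the 18 libraries, in 6 groups of 3 (each point is 1 library, open symbols are libraries with 0 counts drawn at the bottom, and the diamond is the library with 23858 counts). The land groups on the right of each panel hold the highest point of all 10 genes, which was not counted over all genes of the series. Igfbp4 and Igfbp6 vary least among the 17 larger libraries.

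Igf1 (ENSMUSG00000020053, chromosome 10, 87858265 to 87937042), the ligand of the type 1 receptor, was near the detection limit in space. Counts in space without gravity were 1, 4 and 1 in untreated and 17, 0 and 0 in treated cells. Those in space with gravity were 9, 0 and 5 in untreated and 4, 1 and 3 in treated cells, and the last 3 counts, in the smallest library, equal 35.7 CPM. On land they were 40, 0 and 341 in untreated and 0, 6 and 2600 in treated cells. High Igf1 was thus seen in 2 of the 6 land libraries, replicate 3 of either group, at 112 and 846 CPM, whereas 2 other land libraries had 0 counts. A single library, treated land replicate 3, held 2600 of the 3032 Igf1 counts of the series, and the land libraries overlapped both space regimes. Averaged over nanoceria, the edgeR log2 fold change was −7.32 ± 2.14 (SE) in space with gravity against land and −7.45 ± 1.92 in space without gravity against land. Without treated land replicate 3 these were −2.99 and −3.13, and without treated space-without-gravity replicate 1 the latter was −10.19. With limma's voom and library weights they were −1.63 and −1.40, and with the share of the 6 abundant genes as a covariate −12.19 ± 3.00 and −9.14 ± 1.96.

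Igf2 (chromosome 7, 142650766 to 142666816, minus strand) is the fetal growth ligand, expressed from the paternal allele, and its product binds both receptors. Its CPM in space with gravity was 1.48, 0.344 and 0.659 in untreated and 0.554, 1.59 and 0 in treated cells, the 0 being the smallest library. The CPM in space without gravity was 1.00, 0.336 and 1.43 in untreated and 2.18, 2.6 and 2.03 in treated cells. On land it was 5.62, 2.56 and 19.7 in untreated and 0.74, 1.4 and 5.53 in treated cells. Among the 17 larger libraries the 3 highest were on land (replicates 1 and 3 without nanoceria and replicate 3 with it), and the other land libraries overlapped those in space. Igf2 was lower in space with gravity than on land (log2 fold change −2.36 ± 0.67, edgeR adjusted p 0.0280). The call was lost in 5 of the 18 leave-one-out fits: untreated space-with-gravity replicate 2 (adjusted p 0.0702) and replicate 3 (0.0568), treated space-with-gravity replicate 1 (0.116), untreated land replicate 3 (0.0845) and treated land replicate 3 (0.0932). For space without gravity against land it was −1.74 ± 0.62, edgeR adjusted p 0.0966. Of its 5723 exon bases 98 are shared with Igf2os on the opposite strand, which had 0 counts in all libraries.

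The type 1 receptor gene Igf1r (chromosome 7, 67952827 to 68233668) had the opposite order of regimes in the untreated cells. Its CPM was 59.1, 44.8 and 37.9 in space with gravity and 33.7, 26.2 and 32.8 in space without gravity, against 10.1, 6.14 and 8.87 on land, all without nanoceria. Every untreated space library was above every untreated land library, as were those of 15.7% of all 11558 genes for space with gravity and 8.39% for space without gravity. With nanoceria the CPM was 37.0, 32.8 and 11.9 in space with gravity, the last being 1 count, 21.5, 23.8 and 8.63 in space without gravity and 189, 19.2 and 19.9 on land. These treated groups overlapped, and replicate 1 on land stood apart from the other two. Without nanoceria the log2 fold change in space with gravity against land was 2.49 ± 0.75 (edgeR adjusted p 0.0974), and with nanoceria it was −1.32 ± 0.74 (edgeR adjusted p 0.320), which turned to 0.68 ± 0.57 without treated land replicate 1 (adjusted p 0.550). Averaged over nanoceria it was 0.59 ± 0.51 (edgeR adjusted p 0.452), and without treated land replicate 1 it was 1.61 (edgeR adjusted p 0.0178).

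Within land, Igf1r was higher in all 3 nanoceria libraries than in all 3 untreated libraries, with a log2 fold change of 3.17 ± 0.77. Of all genes, 3.7% were likewise higher in treated land without overlap. Its edgeR p was 6.3e-04 and 0.310 after adjustment over 11558 genes, so it did not pass the threshold of 0.05. Without treated land replicate 1 the log2 fold change was 1.22 ± 0.55 (edgeR adjusted p 0.629). The nanoceria log2 fold change of Igf1r was −0.78 ± 0.71 in space without gravity and −0.64 ± 0.73 in space with gravity, each with an edgeR adjusted p of 1. The test of whether the nanoceria effect differed between the 3 regimes gave an edgeR p of 0.00187, adjusted 0.719.

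Igf2r (chromosome 17, 12682406 to 12769664, minus strand), the scavenger receptor of IGF2 and mannose 6-phosphate receptor, was carried by a few libraries. The CPM was 27.5, 14.6 and 31.0 in untreated and 30.2, 14.5 and 0 in treated cells in space with gravity, and 31.1, 9.4 and 39.0 in untreated and 30.0, 137 and 36.1 in treated cells in space without gravity. On land it was 19.4, 16.1 and 219 in untreated and 414, 33.1 and 43.6 in treated cells. In each land group 1 library (219 and 414), and in space without gravity 1 library (137), stood above all others, and the remaining land libraries overlapped both space regimes. Igf2r was lower in space with gravity than on land (log2 fold change −2.46 ± 0.80, edgeR adjusted p 0.0480). The call held in only 1 of the 18 leave-one-out fits, that without treated land replicate 2 (adjusted p 0.0371). In the other fits the adjusted p ran from 0.0504 to 0.211, and the log2 fold change was −1.30 without untreated land replicate 3 and −1.36 without treated land replicate 1. Without the smallest library the adjusted p was 0.0693. Between space without gravity and land the log2 fold change was −1.48 ± 0.76 (edgeR adjusted p 0.237).

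Igfbp3 (chromosome 11, 7206086 to 7213923, minus strand), the main IGF carrier of blood, was the member lower than land in both space regimes among the 9 genes tested. In space with gravity its CPM was 4.64, 6.1 and 5.27 in untreated and 3.88, 2.87 and 0 in treated cells. Space without gravity had 9.02, 12.1 and 4.28 in untreated and 2.62, 2.97 and 5.76 in treated cells. On land it was 43.8, 13.3 and 2.63 in untreated and 38.9, 16.8 and 15.0 in treated cells. In all, 5 of the 6 land libraries were above every larger space library, and the sixth, untreated land replicate 3, lay below most of them. The 0 of the smallest library allows up to 35.7 CPM, so that library cannot be placed. How many of all genes showed such an order was not counted. The log2 fold change in space with gravity against land was −2.38 ± 0.56 (edgeR adjusted p 0.0140). It kept its call in 17 of the 18 leave-one-out fits, the exception being treated space-with-gravity replicate 1 (adjusted p 0.0501). For space without gravity against land it was −1.93 ± 0.53 (edgeR adjusted p 0.0420). There it kept its call in 4 of the 18 fits: those without untreated space-without-gravity replicate 2, the smallest library, untreated land replicate 3 and treated land replicate 2. In the other 14 fits the adjusted p ran from 0.0530 to 0.147, and the log2 fold change was −1.27 without untreated land replicate 1.

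Igfbp2 (chromosome 1, 72824503 to 72852474), a binding protein of fetal and proliferating tissues, was lower in the larger libraries of space with gravity than in any land library. Its CPM in space with gravity was 0.838, 0.774 and 0.165 in untreated and 0.317, 1.43 and 0 in treated cells. On land it was 1.83, 1.79 and 2.63 in untreated and 1.85, 2.2 and 22.1 in treated cells. All 6 land libraries were above the 5 larger libraries of space with gravity, which no other member showed. The 0 of the smallest library allows up to 35.7 CPM, more than any land value, so that library cannot be placed. Treated land replicate 3 stood above the other land libraries. Among all 11558 genes, 3.24% were lower in space with gravity without overlap in the larger libraries, so this separation is shared with many genes. The CPM in space without gravity was 0.802, 3.69 and 4.81 in untreated and 2.77, 1.86 and 0.846 in treated cells, a range that took in 5 of the 6 land libraries. The log2 fold change in space with gravity against land was −2.54 ± 0.74 (edgeR adjusted p 0.0306). The call was lost in 7 of the 18 leave-one-out fits: untreated space-with-gravity replicates 1, 2 and 3 (adjusted p 0.0542, 0.0589 and 0.0617), treated space-with-gravity replicate 1 (0.126), untreated land replicates 1 and 2 (0.0557 and 0.0558) and treated land replicate 3 (0.139, with a log2 fold change of −1.48). The total was 230 counts, so single counts move these values. Against space with gravity, space without gravity had a log2 fold change of 1.72 ± 0.72, with an edgeR p of 0.0281 and 0.780 after adjustment. Against land, space without gravity had −0.82 ± 0.65 (edgeR adjusted p 0.454).

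Igfbp5 (chromosome 1, 72857932 to 72874884, minus strand), a binding protein known from muscle and bone matrix, had the widest fold range (2144-fold) of the 9 genes with counts in all 17 larger libraries. Its CPM was 0.193, 10.2 and 0.494 in untreated and 0.633, 20.2 and 0 in treated cells in space with gravity, and 1.8, 7.55 and 2.67 in untreated and 8.3, 8.54 and 2.88 in treated cells in space without gravity. On land it was 20.5, 1.53 and 32.9 in untreated and 7.77, 4.21 and 415 in treated cells. Of its 1994 counts 1274 were in treated land replicate 3, and replicate 2 of either group in space with gravity was far above the other libraries of that regime. The log2 fold change in space with gravity against land was −3.12 ± 1.18 (edgeR adjusted p 0.0804) and in space without gravity against land −3.31 ± 1.16 (edgeR adjusted p 0.0925), neither past the threshold. Without treated land replicate 3 these were −0.82 and −1.02.

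Igfbp7 showed the same dependence on that library. Its CPM was 59.8, 48.6 and 31.0 in untreated and 54.3, 178 and 11.9 in treated cells in space with gravity, the last being 1 count, and 29.9, 179 and 115 in untreated and 99.6, 77.6 and 44.2 in treated cells in space without gravity. On land it was 172, 126 and 189 in untreated and 30.0, 113 and 1422 in treated cells. Treated land replicate 3 was the highest library of the series and replicate 1 of the same group was among the lowest, so the regimes overlapped. The log2 fold change in space with gravity against land was −2.19 ± 0.75 (edgeR adjusted p 0.0571), and −0.73 without treated land replicate 3 (adjusted p 0.409). Leaving out treated space-with-gravity replicate 2, or treated land replicate 1 or 2, put it past the threshold (adjusted p 0.0434, 0.0281 and 0.0432). Against land, space without gravity had −1.71 ± 0.73 (edgeR adjusted p 0.159). Of the 1209 exon bases of Igfbp7, 85 are shared with Polr2b on the opposite strand (1190 counts), and the libraries are not described as stranded, so reads there cannot be assigned to either gene with certainty.

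The other binding proteins, Igfbp4 and Igfbp6, had the narrowest ranges across the larger libraries and no edgeR call with all libraries. Igfbp4 (chromosome 11, 99041244 to 99054392), which is cleaved by the protease PAPP-A to free its ligand, ran from 11.03 to 27.2 CPM in the 17 larger libraries. Igfbp6 (chromosome 15, 102144362 to 102149511), which prefers IGF2, ran from 5.29 to 17.4 CPM. In space with gravity against land their log2 fold changes were −0.51 ± 0.38 and −0.47 ± 0.37 (edgeR adjusted p 0.365 and 0.397). For space without gravity against land they were −0.13 ± 0.37 and −0.02 ± 0.36 (edgeR adjusted p 0.860 and 0.980). Without nanoceria, Igfbp6 was at 5.29, 8.34 and 7.74 CPM in space with gravity and 8.99, 17.4 and 16.8 on land. Its log2 fold change there was −1.01 ± 0.51 (edgeR adjusted p 0.255), and the same regimes with nanoceria overlapped. With the share of the 6 abundant genes as a covariate, the Igfbp4 values were 0.33 and 0.21, so its direction against land was not fixed.

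**Figure D2:**
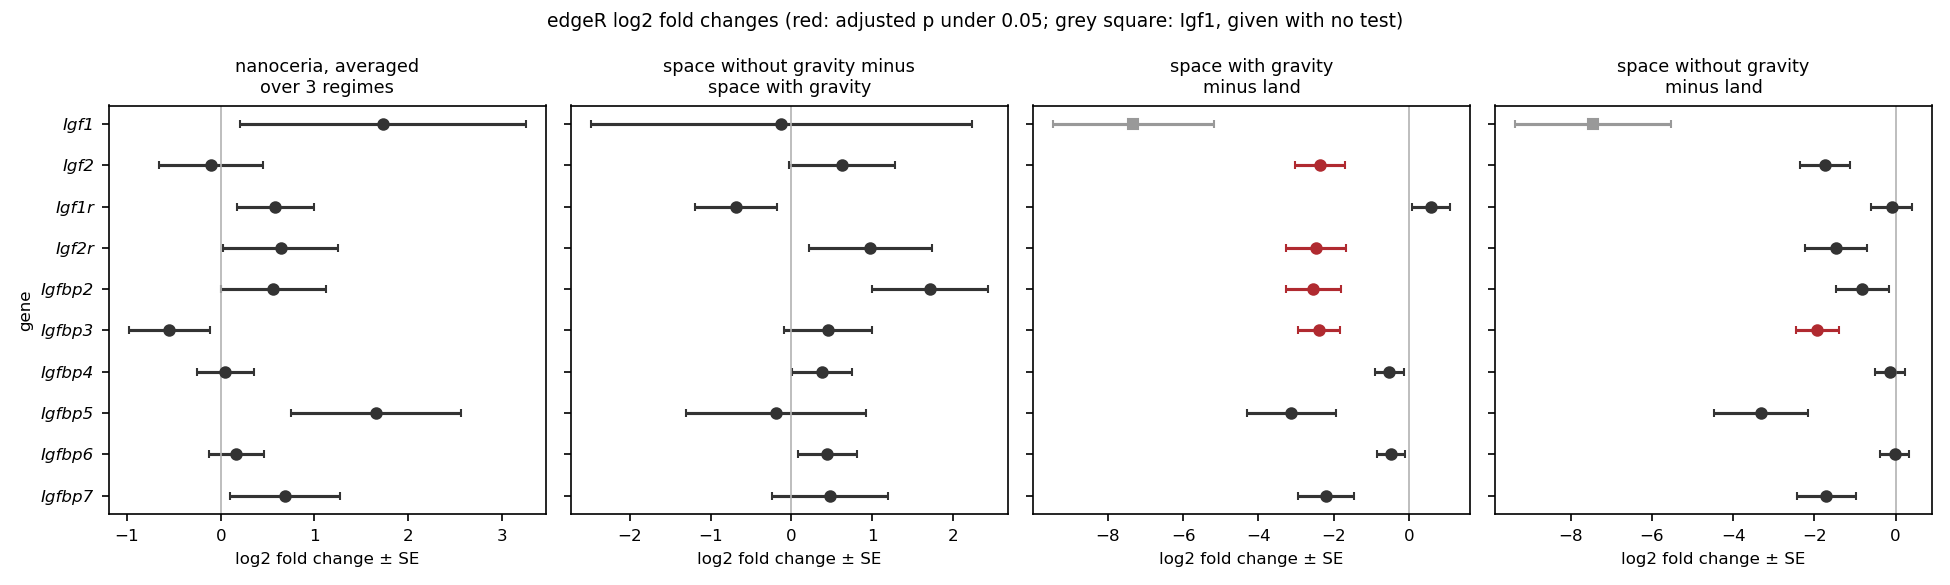
Log2 fold changes of the 10 genes (points) with their standard errors (bars) from edgeR, one panel per averaged comparison, each with its own horizontal scale. Red points (adjusted p under 0.05) are Igf2, Igf2r, Igfbp2 and Igfbp3 in space with gravity minus land and Igfbp3 in space without gravity minus land, and the grey squares are Igf1, given with no test.

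Taking the axis as a list, 4 of the 9 genes other than Igf1 were lower in space with gravity than on land and 0 were higher, where 14.0% of all 11558 genes tested were called, 6.74% lower and 7.22% higher. For space without gravity against land 1 of the 9 was lower and 0 higher, where 5.25% of all genes were called, 2.44% lower and 2.81% higher. The median log2 fold change of these 9 was −2.36 in the former, where all tested genes had −0.04, and −1.48 in the latter, where they had −0.02. These medians were not computed without treated land replicate 3, the library with most Igf1 counts. In the former comparison Igfbp2, Igfbp5 and Igfbp7 had smaller log2 fold changes without it. Several of the 9 also varied together with Igf1 across libraries, so leaving out Igf1 does not free the list from how it was chosen. Both comparisons use the same 6 land libraries, so they are not independent. The count of 4 became 0 without treated space-with-gravity replicate 1, 1 without untreated space-with-gravity replicate 3 or treated land replicate 3, and 2 without untreated space-with-gravity replicate 1 or 2 or any of the 3 untreated land libraries. With DESeq2's size factors in place of TMM, 2186 genes were called in space with gravity against land, 628 higher and 1558 lower, and the median of all genes shifted to −0.39. For the other space regime that scaling gave 261 higher and 552 lower, with a median of −0.28. Under it 6 and 1 of the 9 genes were called, all lower. With the share of the 6 abundant genes as a covariate, 0 of the 9 genes were called in either comparison, with wider standard errors. In space with gravity against land the log2 fold changes were then −3.62 ± 0.93 for Igf2 (adjusted p 0.156) and −3.40 ± 1.43 for Igf2r (adjusted p 0.352), both further from 0 than without the covariate, −2.47 ± 1.15 for Igfbp2 (adjusted p 0.411) and −0.71 ± 1.06 for Igfbp3 (adjusted p 0.864). For Igfbp3 in space without gravity against land it was −1.14 ± 0.66 (adjusted p 0.432). That share was higher on land than in space with gravity in most libraries, and its part in these results cannot be told apart from the regime by this design.

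**Figure D3:**
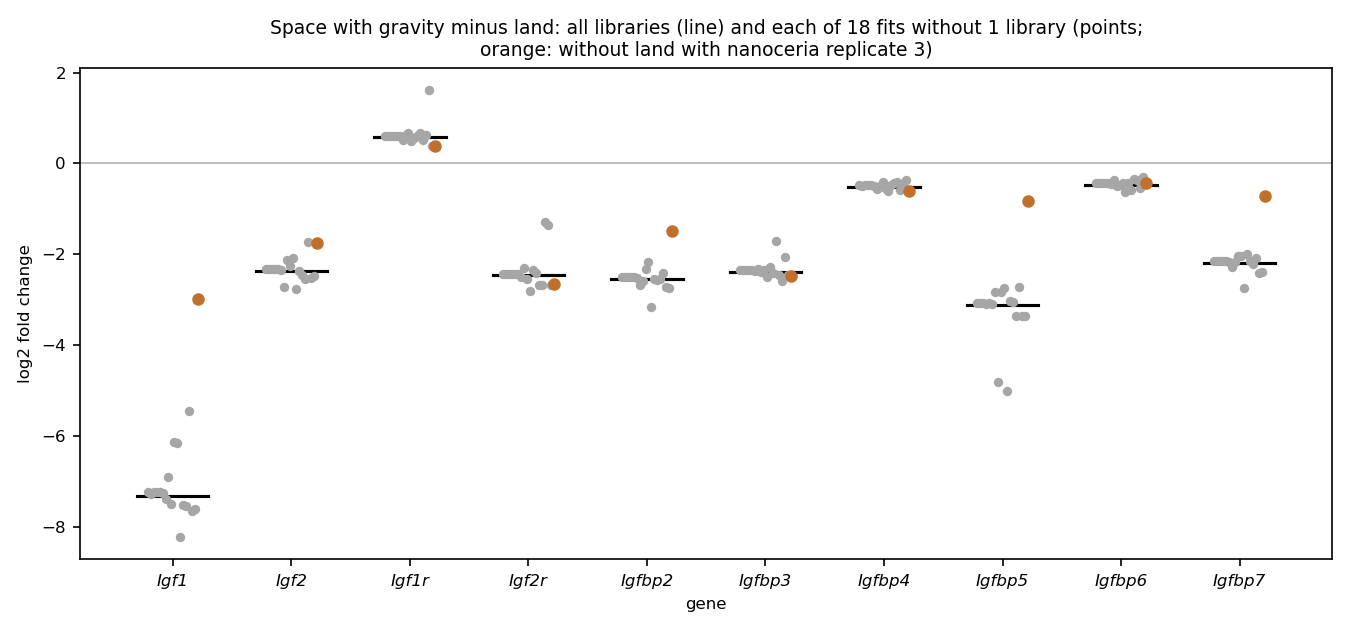
Log2 fold change of each gene in space with gravity minus land with all libraries (black line) and in each of the 18 fits without 1 library (points). The orange points, without treated land replicate 3, sit at −2.99 for Igf1, −0.82 for Igfbp5 and −0.73 for Igfbp7, far from their lines at −7.32, −3.12 and −2.19, while Igfbp3, Igfbp4 and Igfbp6 have theirs close to the line.

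In the edgeR fit with the filter on low counts, neither gravity in space nor nanoceria moved a member past the threshold. With no such filter nanoceria called Igfbp5, and its difference between regimes called Igf1r. In space without gravity against space with gravity, edgeR called 0 of the 10 members and 0% of all genes (676 genes at an unadjusted p under 0.05, of which 1 was a member, Igfbp2). The remaining log2 fold changes ran from −0.69 ± 0.51 for Igf1r to 0.98 ± 0.77 for Igf2r. For nanoceria averaged over the 3 regimes, edgeR called 0 of 10 members and 0% of all genes (756 genes and 0 members at an unadjusted p under 0.05). The largest values were 1.73 ± 1.52 for Igf1 and 1.66 ± 0.91 for Igfbp5 (edgeR adjusted p 0.865 and 0.775), and without treated land replicate 3 they were −1.14 and 0.16. The test of nanoceria effects differing between regimes called 0 members and 0% of all genes (710 genes at an unadjusted p under 0.05). In the 9 comparisons between 2 groups of 3 libraries, 0 of the 90 member tests passed, with 0% of all genes called in 7 of them, 0.00865% in space with gravity against land with nanoceria and 0.0433% in space without gravity against land with nanoceria. DESeq2 called 11 genes and 0 members for gravity, 1 gene and 0 members for nanoceria, 8 genes and 0 members for the difference between regimes, and 9 member tests among the pairwise comparisons, all 9 against land.

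The make-up of the binding proteins was dominated by Igfbp7 in all 17 larger libraries. Per kilobase, its share of the summed level of the 6 binding proteins had a median of 80.0% and ran from 48.9% in treated land replicate 1 to 92.2% in treated land replicate 3. Igfbp6 followed with a median of 11.8% (0.780% to 22.5%), and Igfbp4 with 5.15%. Igfbp3 had a median of 2.47% and reached 24.5% in treated land replicate 1, its highest share. The extremes of both Igfbp7 and Igfbp3 were thus libraries of 1 group, and the shares did not sort by regime.

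**Figure D4:**
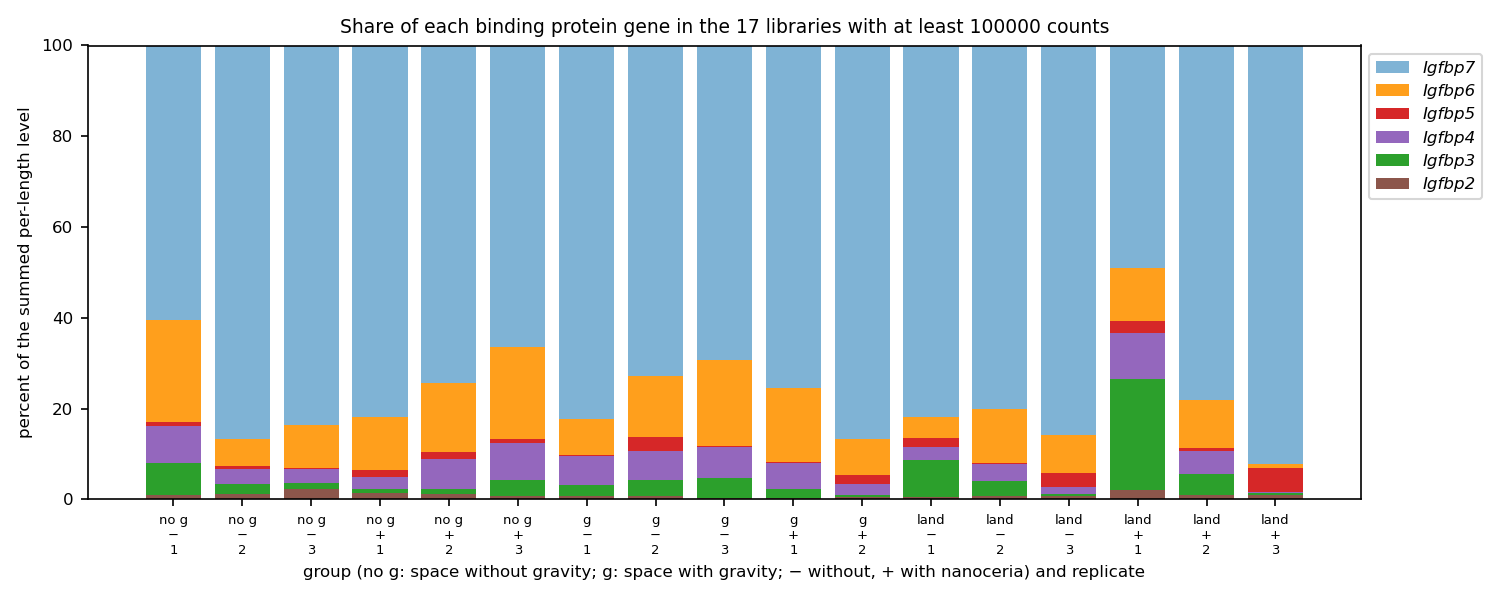
Share of each binding protein gene, in percent, in the summed CPM per kb of the 6 genes, one bar per library for the 17 libraries with at least 100000 counts. Igfbp7 fills between 48.9% and 92.2% of each bar, and the lowest and highest are treated land replicates 1 and 3.

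Of a list of 58 further genes of IGF signalling, carriers and proteases, 50 were tested. In space with gravity against land 5 were higher and 2 lower. This is the same share as among all genes (14.0%), so the list as a whole did not stand out. Rps6kb1, the S6 kinase downstream of mTOR, had a log2 fold change of 1.96 ± 0.42 (edgeR adjusted p 0.00954), and Mtor itself 1.44 ± 0.39 (edgeR adjusted p 0.0225). Adamts1, a matrix protease, had 1.87 ± 0.45 (edgeR adjusted p 0.0150), and Nras, a RAS GTPase, 1.76 ± 0.54 (edgeR adjusted p 0.0378). The genes that were lower were Mmp2, a matrix metalloproteinase (−2.20 ± 0.49, edgeR adjusted p 0.0111), and H19, the imprinted non-coding RNA next to Igf2 (−4.31 ± 0.99, edgeR adjusted p 0.0126). Among the genes named here, Rps6kb1, Mmp2 and H19 kept their calls in all 18 fits that each left out 1 library. Adamts1 lost its call without treated space-with-gravity replicate 1 (adjusted p 0.0585), and Mtor without untreated space-with-gravity replicate 2 (0.0517), treated space-with-gravity replicate 2 (0.0600) or untreated land replicate 1 (0.0522). Nras lost it in 13 of the 18 fits (adjusted p up to 0.0967).

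In space without gravity against land, 3 of the 50 were higher and 1 lower (background 5.25%). Rps6kb1 had a log2 fold change of 1.63 ± 0.41 (edgeR adjusted p 0.0320), Adamts1 1.59 ± 0.44 (0.0457) and Mmp2 −2.20 ± 0.48 (0.0202). H19 had −3.09 ± 0.92 (edgeR adjusted p 0.0558). These calls held in 11, 2 and 13 of the 18 leave-one-out fits, in the order Rps6kb1, Adamts1 and Mmp2. With the share of the 6 abundant genes as a covariate, 0 of the 50 were called in either comparison. For gravity in space and for nanoceria edgeR called 0 of the 50 (0% of all genes), with 1 of the 50 at an unadjusted p under 0.05 in each, and DESeq2 called 0. The smallest p for gravity were those of Sos1, a RAS activator (log2 fold change −1.30 ± 0.44, edgeR adjusted p 0.660), Htra1, a secreted protease (0.88 ± 0.42, 0.854), and Grb10, an adaptor that dampens receptor signalling (−2.74 ± 1.32, 0.856). Those for nanoceria were Mapk3, the ERK1 kinase (log2 fold change 0.69 ± 0.33, edgeR adjusted p 0.752), Sos1 (−0.73 ± 0.36, 0.761) and Igf2bp3, which binds Igf2 mRNA (−1.22 ± 0.66, 0.772).

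H19 shares an imprinted domain and enhancers with Igf2. Land libraries held 719, 36 and 379 counts of H19 in untreated and 29, 42 and 814 in treated cells. Libraries of space with gravity held 44, 24 and 6 in untreated and 23, 119 and 0 in treated cells. Those of space without gravity held 8, 170 and 110 in untreated and 60, 17 and 19 in treated cells. The highest H19 levels, 101, 125 and 265 CPM, were in land replicates 1 and 3 without nanoceria and replicate 3 with it. Among the 17 larger libraries these were also the 3 with the highest Igf2. The pairing did not extend to the next libraries in order. Among the 17 larger libraries, untreated space-without-gravity replicate 2 had the fourth highest H19 (28.5 CPM), above the other 3 land libraries, and the lowest Igf2 (0.336 CPM).

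Several members varied together across the 17 larger libraries, given here as a description because the libraries share differences of depth and composition. Pearson's r of log2 CPM was 0.85 for Igfbp2 and Igfbp7, 0.78 for Igfbp5 and Igfbp7, 0.77 for Igf1 and Igfbp7 and 0.70 for Igf1 and Igf2. Without treated land replicate 3 these were 0.68, 0.56, 0.49 and 0.75. Of the 45 pairs 10 had r over 0.5, and 7 without that library.

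Among all other tested genes, the profiles most like each member over the same 17 libraries were as follows. For Igf1 they were Prelp (r 0.94), Postn (0.93) and Rab11fip3 (0.92), and for Igf2 Col8a2, Serpine2 and Ptn (each 0.87). Treated land replicate 3 held 55.8% of Prelp, 39.1% of Postn and 56.9% of Rab11fip3 counts. Untreated land replicate 3 held 73.1% of Col8a2, 23.4% of Serpine2 and 78.4% of Ptn counts. Single libraries thus weigh heavily on most of these, and their r without such a library was not computed. Igf1r was closest to Arfgap1 (0.90), Fam210a (0.85) and Ikzf2 (0.83), and Igf2r to Tsku (0.90), Leng8 (0.90) and Cd81 (0.89). Igfbp2 was closest to Zfp503 (0.90), Mgl2 (0.89) and Pcolce (0.89), Igfbp3 to Gm8762, Zfp385a and Kctd2 (each 0.88) and Igfbp4 to Naglu (0.85), 9330151L19Rik (0.83) and Tbc1d22a (0.83). Igfbp5 was closest to Prrx2 (0.88), Pcolce (0.88) and Serpinh1 (0.86), and Igfbp7 to Fzd1 (0.95), Tnc (0.92) and Oaf (0.92). Igfbp6 had the weakest neighbours, 1810037I17Rik (0.79), Chchd2 (0.78) and Srp14 (0.75). Pcolce was the gene named for 2 members, Igfbp2 and Igfbp5.

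Markers of other cell states were read in the same libraries, where fewer cells of a type and less RNA per cell cannot be told apart. The sums below are those of the 17 larger libraries. The 6 fibroblast markers summed to 2.80 to 5.42 CPM in space with gravity and 2.01 to 7.31 in space without gravity. On land they summed to 7.86 to 23.0 in untreated cells and 3.70 to 6.21 in treated cells, the latter overlapping both space regimes. Lum was at 0 in all 18 libraries. The 5 adipocyte markers summed to 78.8 CPM in treated land replicate 3, all of it Lpl (242 counts), with Adipoq at 0 in all libraries, and to 1.60 to 24.6 CPM in the other larger libraries. The 8 markers of differentiating muscle reached 88.0 CPM in untreated land replicate 1 and at most 17.4 in the other larger libraries. Macrophage markers (5 listed) summed to 2.63 to 41.8 CPM, mostly Cd68, with Adgre1 at 0 throughout, and the 4 endothelial markers to at most 2.32 CPM. Proliferation markers (6 listed) summed to 23.4 to 147 CPM, with 27.0 to 84.4 in space with gravity and 23.4 to 147 on land. The part of these marker levels in the values of the IGF genes was not tested.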

How the data were processed

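The files hold whole-number counts per Ensembl gene as deposited by the authors, 1 table per polyadenylated RNA library, with gene positions and exon lengths in the featureCounts layout per the file headers. The submitters' processing notes name CASAVA, Trimmomatic 0.36.29, STAR, Subread, featureCounts and the build GRCm38.p6; the strand setting, the treatment of reads with several hits and the annotation are not given in the sources used here. Of 49315 gene IDs 48970 matched a symbol. The 18 small RNA samples were not analysed here.

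The 18 libraries were fitted together with edgeR 4.0.16 (R 4.3.3; TMM scaling, filterByExpr, robust quasi-likelihood fit, 1 mean per group, 12 residual degrees of freedom). This left 11558 genes, and p-values were adjusted over all of them by the Benjamini-Hochberg method with a threshold of 0.05. Averaged comparisons give both nanoceria levels, or all 3 regimes, equal weight. The group and regime of each library come from the labels, whose replicates are separate experiment units. The labels give no replicate number, and the numbers used here follow sample order within each group. A run on simulated counts was also made, but its outcome is not given here. No conclusion on the libraries, scaling or tests is drawn from it.

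Levels are TMM-scaled CPM, and are compared between genes only per kilobase of exon. Similar profiles were ranked by Pearson's r of log2 CPM (prior count 2) over the 17 libraries with at least 100000 counts. Named are every member, the 3 most similar genes of each, listed pathway genes past the threshold in an averaged comparison, and the 3 with the smallest p in each, except 1 listed gene that is counted but not reported here. The members and lists were chosen with earlier results of these data known. Alternatives were DESeq2 1.42.0, DESeq2 size factors, limma 3.58.1 voom with quality weights, other filters, fewer libraries, removal of the 6 most abundant genes, their share as a covariate, and leaving out each library. Promoters are from RefSeq (GRCm38.p6).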

Additional observations from a re-analysis of the deposited data

How the results depend on the processing

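No paired analysis was possible because no label links a library of 1 group with a library of another. Apart from leaving out 1 library, there were 335 comparisons of a member's value with an alternative. Of these, 289 kept direction and side of the threshold, 18 reversed, 12 lost and 13 gained a call, and 3 moved with no test. For Igf1 against land, kept meant a change under 1 SE, with no test. A call could be lost only by the few members called against land. In 720 comparisons with 1 library left out, 636 kept, 32 reversed, 44 lost and 5 gained a call, and 3 moved with no test. The causes were not tested.

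The 4 members called in space with gravity against land became 1 with voom and 0 with the share of the 6 abundant genes as a covariate, and ran from 0 to 5 without 1 library. The 1 called in space without gravity against land became 4 with DESeq2, 3 with no filter on low counts, 0 with the compared libraries only and 0 with the covariate, and ran from 0 to 1 without 1 library. With no filter, nanoceria called 1 (Igfbp5) and its difference between regimes 1 (Igf1r). The 0 pairwise calls became 9 with DESeq2, 3 with voom, 17 with no filter and 1 with the compared libraries only, and ran from 0 to 1 without 1 library.

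Genes called in space with gravity against land (1613) numbered 2691 with DESeq2 and 1 with the covariate, and 459 to 1614 without 1 library. In space without gravity against land (607) they numbered 1524 with DESeq2, 1466 with no filter, 989 with voom, 387 with the compared libraries only and 6 with the covariate, and 82 to 713 without 1 library. With no filter, 214, 229 and 551 genes were called for nanoceria, gravity and the difference between regimes.

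Reversed log2 fold changes were all of uncalled values. For nanoceria, Igf2 became 0.060 with DESeq2 and 0.23 with the covariate, and with voom Igfbp2 became −0.012 and Igfbp7 −0.15. For gravity, Igf1 became 0.23 with voom, 0.76 without the smallest library and 3.05 with the covariate, Igfbp5 became 0.047 with DESeq2 and 1.50 with voom, and with the covariate Igfbp3 became −0.43 and Igfbp4 −0.12. With the covariate Igfbp4 became 0.33 in space with gravity against land. In space without gravity against land Igf1r became 0.090 with voom and 0.17 with the covariate, Igfbp4 0.21 with the covariate, and Igfbp6 0.021 with voom, 0.029 with no filter and 0.054 with the covariate.

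Without 1 library, the nanoceria values ran from −1.14 to 2.95 for Igf1, −0.49 to 0.29 for Igf2, −0.067 to 0.75 for Igf1r, −0.058 to 1.40 for Igf2r, −0.12 to 0.79 for Igfbp2, −0.019 to 0.16 for Igfbp4 and −0.25 to 0.87 for Igfbp7. The gravity values ran from −2.97 to 0.76 for Igf1 and −0.60 to 1.72 for Igfbp5. In space without gravity against land they ran from −0.32 to 0.91 for Igf1r, −1.04 to 0.22 for Igfbp2, −0.24 to 0.0094 for Igfbp4 and −0.14 to 0.13 for Igfbp6. Igf2 and Igfbp2 had too few counts for the filter at a mean of 50, and DESeq2 gave no adjusted p for Igf1 and Igf1r. Depth limits Igf1 most, at or under 3 counts in 9 of 18 libraries, against 3 libraries for Igf2 and Igfbp5 and 2 for Igfbp2.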
